A study of Mus musculus with 3 samples.

Results

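Collagen genes code for the chains of the collagen family of the extracellular matrix, and all 44 genes of the deposited count matrix whose symbol is Col, a number, the letter a and a second number were taken, of 31053 genes in all. Membership was set by the symbol alone and by no measured value. Collagen chains wind in threes into triple helices. Fibrillar collagens assemble into fibrils, type IV chains form the network of basement membranes, fibril-associated collagens sit on fibril surfaces, and transmembrane collagens stay anchored in the cell membrane. In the brain the bulk of the collagen network lies around blood vessels and in the meninges, where endothelial cells, pericytes, smooth muscle cells and fibroblasts lay it down.

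The study used single-cell RNA sequencing (scRNA-seq) of mouse brain to ask how gene expression, above all of astrocytes, differs between ischemic and hemorrhagic stroke. The 3 samples were control brain from healthy mice, ischemic stroke by middle cerebral artery occlusion (MCAO), which blocks the artery with a suture, and hemorrhagic stroke by an injection of collagenase IV into the striatum. All were labelled C56BL6, brain and 10 weeks of age, each condition came from 8 mice and was run as 1 library, and no source used here states the time after stroke at which these brains were taken. The matrix told its 3 libraries apart only by a barcode suffix of 1, 2 or 3, and neither the labels nor the deposited files say which condition a suffix stands for, so the cells were treated as 1 pooled sample and no test between conditions was made. A difference between suffixes below is one between libraries, in which condition and library preparation cannot be told apart. RNA and not protein was measured, and no agent or allele other than those named was given.

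After barcodes under 1000 UMIs (unique molecular identifiers, 1 per captured RNA molecule) or over 30% mitochondrial UMIs were left out, 31982 of 35968 barcodes remained, with 8969, 13769 and 9244 cells of suffix 1, 2 and 3 and medians of 6389, 5801 and 6288 UMIs per cell. A panel of marker genes, none of them a collagen, placed 26799 cells in 18 classes. Another 1747 cells passed panels of several lineages and were kept out of all classes as mixed cells, and 3436 cells passed no panel. Barcode sequences present in more than 1 library numbered 110, or 0.307% of all. Of the markers used, Cldn5 had a UMI in 99.7% of endothelial cells, Pdgfra in 91.6% of oligodendrocyte precursors and P2ry12 in 86.3% of microglia. Sall1, of the same panel as P2ry12, had one in 36.3% of microglia. A cell needed at least 3 genes of its panel, so such shares follow in part from the gate. In the neuron class Snap25 was found in 99.0% of cells but Rbfox3 in 7.92%.

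A level is given in CPM, the UMIs of a gene summed over the cells of a class per 1000000 UMIs of that class. A gene was called higher in a class when at least 5% of the cells of that class had a UMI, when they held at least 10 UMIs, and when its CPM plus 5 was at least 4 times that of all other classed cells together plus 5. Intervals are exact 95% Poisson intervals for CPM and exact intervals from the binomial for ratios of UMIs. They cover counting error only, since there is no replicate. By this rule 26 of the 44 collagen genes were called in at least 1 class, 14 of them in a single class and 12 in several, which made 44 calls of a gene in a class. Over the 17488 genes of the matrix that held at least 10 UMIs in at least 1 class, 33.5% were called in at least 1, and 37 of the 44 collagens were among those genes. No collagen was called in 8 classes, namely mature oligodendrocytes, neuroblasts, border macrophages, dendritic cells or monocytes, neutrophils, T cells, NK cells and B cells. In 4 of these, border macrophages, dendritic cells or monocytes, NK cells and B cells, no collagen reached 10 UMIs, so none could be called, and the shares of other genes called there, 1.84%, 11.3%, 2.71% and 5.73%, are no measure for collagens. Of the others, mature oligodendrocytes had 21 collagens above that minimum, neuroblasts 9, neutrophils 3 and T cells 2, and the shares of all tested genes called there were 4.67%, 5.35%, 5.45% and 2.47%.

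**Figure D1:**
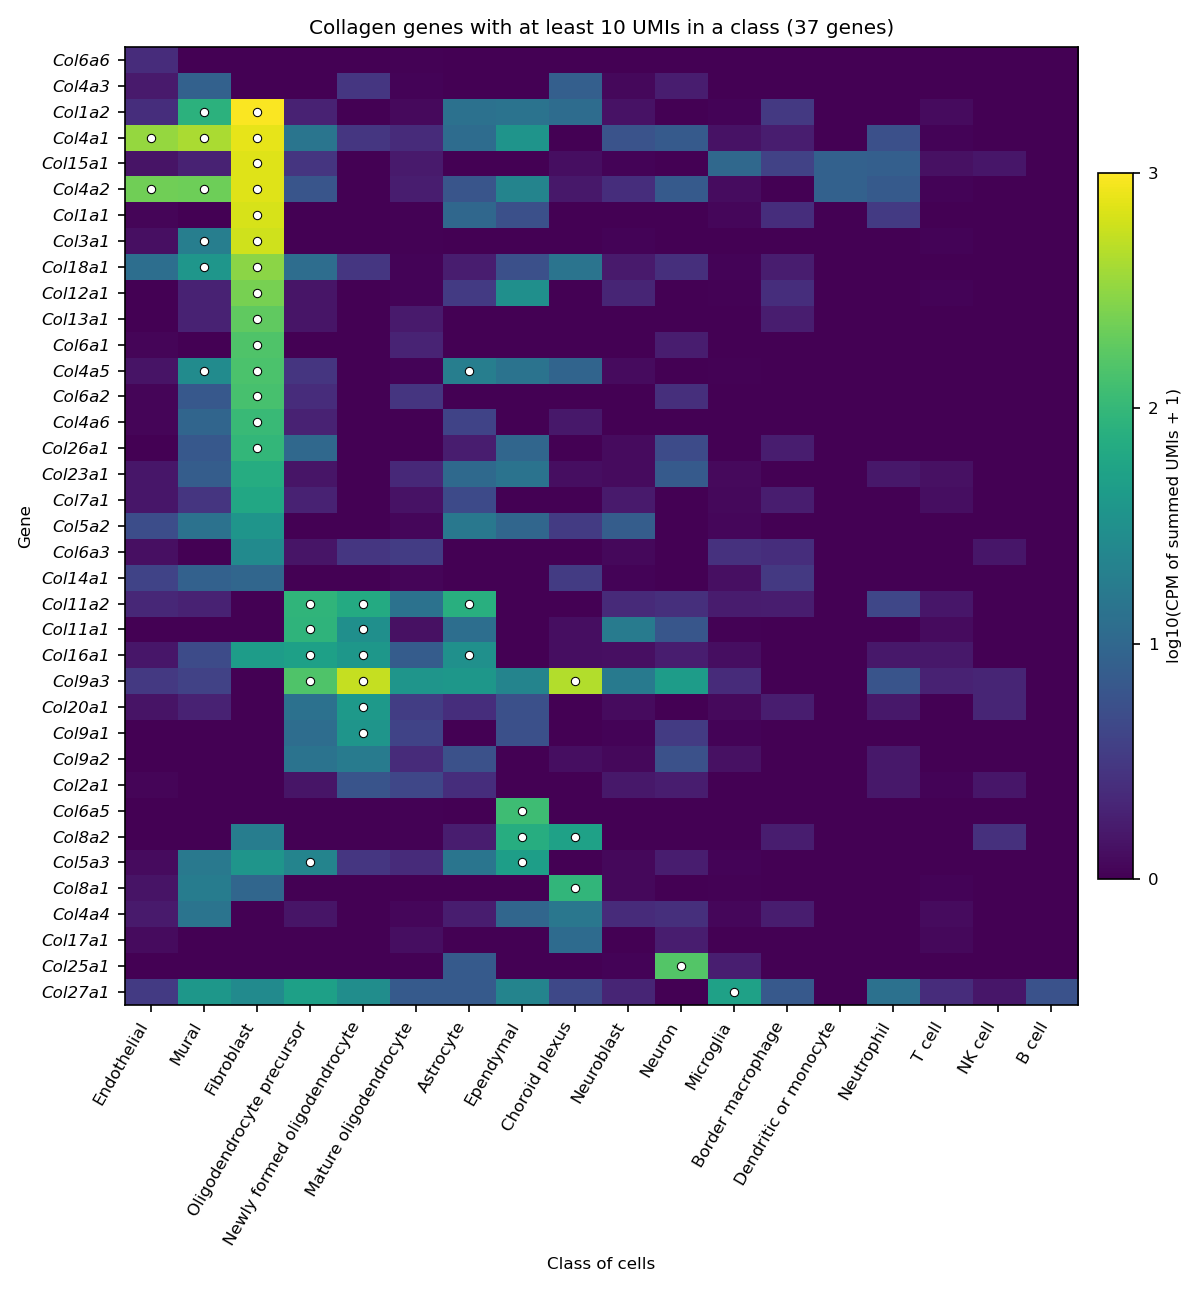
The 37 collagen genes with at least 10 UMIs in a class (vertical axis) across the 18 classes (horizontal axis), coloured by log10 of CPM plus 1; white dots mark genes called higher in a class. The fibroblast column holds 14 dots, the oligodendrocyte precursor and newly formed oligodendrocyte columns share Col9a3, Col11a1, Col11a2 and Col16a1, and the lymphocyte columns at the right hold none.

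The sum over all 44 genes showed the order of the classes. Fibroblasts held 6139 CPM of collagen RNA (5691 to 6613), mural cells 955 (896 to 1016), newly formed oligodendrocytes 810 (755 to 868), choroid plexus cells 668 (641 to 696), endothelial cells 590 (575 to 606) and oligodendrocyte precursors 541 (510 to 573). The intervals of these neighbours did not overlap, but the order below mural cells turned under other settings. With every cell thinned to 1000 UMIs, precursors lay at 617 CPM, above newly formed oligodendrocytes and choroid plexus cells at 602 each. Endothelial cells lay below precursors in 4 of 12 settings, among them the one without suffix 3 (419 against 546 CPM) and the one with every cell thinned to 1000 UMIs (534 against 617). Within the library of suffix 2 the values were 412 CPM (306 to 543) in 19 endothelial cells and 552 (498 to 611) in precursors, and within that of suffix 3 they were 593 (577 to 609) and 511 (433 to 600), with overlapping intervals in both. In the 526 endothelial cells with no UMI of a pericyte or smooth muscle marker the sum was 522 CPM (498 to 548), which overlapped with precursors. Choroid plexus cells lay below endothelial cells in 1 of the 12 settings, at 514 against 525 CPM with the study's filter of 2 SD. Precursors, at 546 CPM, lay above both in that setting. Ependymal cells held 455 CPM (372 to 551), which overlapped with precursors. Astrocytes held 284 CPM, mature oligodendrocytes 84.7 and microglia 68.6, whereas T cells held 5.64 (4.46 to 7.04). Of the 30890 collagen UMIs, 5 genes held 73.4%: Col27a1, Col9a3, Col4a1, Col4a2 and Col11a2. By suffix the collagen UMIs numbered 6976, 7786 and 16128. The library of suffix 3 also held 1068 of the 1089 endothelial and 194 of the 219 mural cells.

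**Figure D2:**
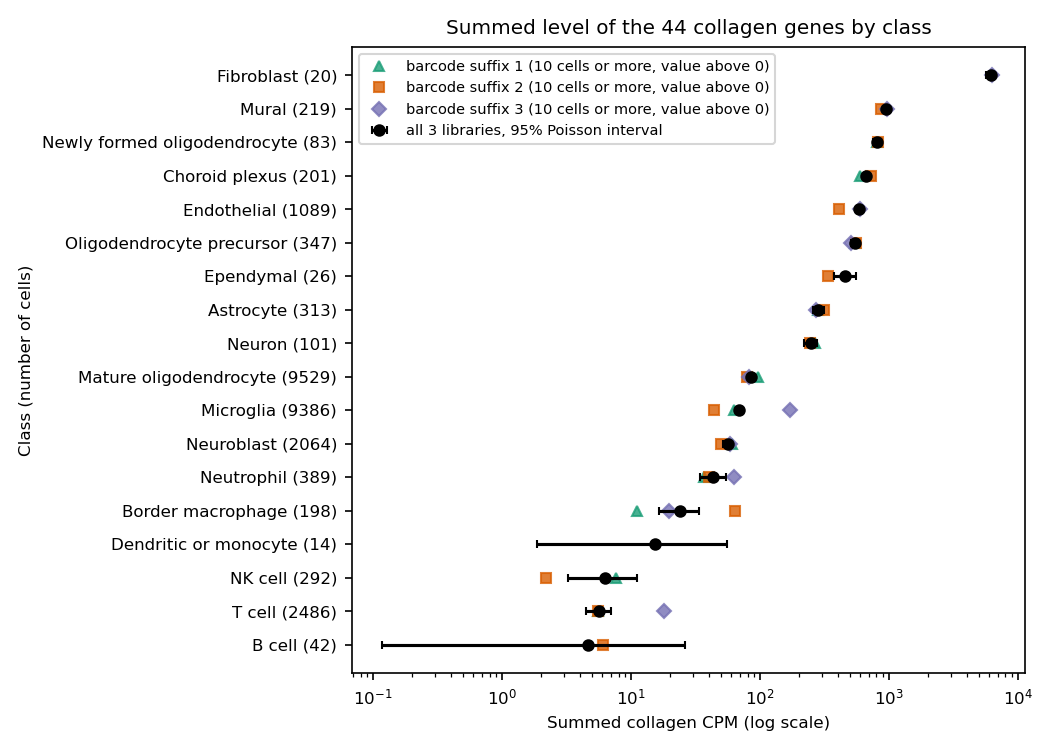
Summed CPM of the 44 collagen genes (horizontal log axis) in each class (vertical axis, with its number of cells); black points are all 3 libraries with exact 95% Poisson intervals, and coloured points are single libraries with at least 10 cells. Fibroblasts stood at 6139 CPM and T cells at 5.64 CPM, and microglia of suffix 3 lay at 170 CPM beside 62.5 and 44.3 in the other libraries.

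Type IV collagen, the network former of basement membranes, made up 94.6% of the collagen UMIs of endothelial cells and 72.1% of those of mural cells. A gene counts as tested in a class where it had at least 10 UMIs. In endothelial cells 2 of the 10 collagens tested were called, beside 5.53% of all genes tested there. Col4a1 reached 332 CPM (320 to 344) with a UMI in 74.6% of cells, and Col4a2 225 CPM (215 to 235) with a UMI in 65.2%. Col4a1 in endothelial cells was 255 CPM in the library of suffix 2 and 333 in that of suffix 3, whereas the other classed cells of those libraries held 1.24 and 13.04 CPM. Only 2 endothelial cells carried suffix 1, with 3 UMIs of Col4a1. Both chains were therefore high in each library that held at least 10 endothelial cells, and the remaining 42 collagens were at or below 11.3 CPM in this class.

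The genes Col4a1 and Col4a2 lie head to head on chromosome 8 of GRCm38, Col4a1 on the minus strand at chr8:11198423-11312826 and Col4a2 on the plus strand at chr8:11312805-11449287, and their annotated exons overlap at the start. Col4a5 and Col4a6 form a second head-to-head pair on the X chromosome. Their promoter windows and that of Col1a2, a gene called in both mural cells and fibroblasts, are shown because Col4a1 and Col4a2 were both called in endothelial cells, mural cells and fibroblasts. Col4a5 was called in mural cells, fibroblasts and astrocytes, and Col4a6 in fibroblasts alone. Each is the RefSeq window of 300 bases on GRCm38.p6, which ends 50 bases after the start site, written 5′ to 3′ on the strand of the gene, at chr8:11312777-11313076 (minus), chr8:11312555-11312854 (plus), chrX:141475169-141475468 (plus), chrX:141474027-141474326 (minus) and chr6:4505368-4505667 (plus). Capitals mark matches on either strand to the CCAAT box (CCAAT) and the GC box (GGGCGG), and the TATA box (TATAAA) was searched as well.
Col4a1: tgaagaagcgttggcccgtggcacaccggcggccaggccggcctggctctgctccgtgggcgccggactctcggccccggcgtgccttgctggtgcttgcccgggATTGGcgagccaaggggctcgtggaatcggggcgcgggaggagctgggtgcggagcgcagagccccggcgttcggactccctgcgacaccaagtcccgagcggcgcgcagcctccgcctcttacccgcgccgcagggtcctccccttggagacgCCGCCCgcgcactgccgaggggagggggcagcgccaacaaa
Col4a2: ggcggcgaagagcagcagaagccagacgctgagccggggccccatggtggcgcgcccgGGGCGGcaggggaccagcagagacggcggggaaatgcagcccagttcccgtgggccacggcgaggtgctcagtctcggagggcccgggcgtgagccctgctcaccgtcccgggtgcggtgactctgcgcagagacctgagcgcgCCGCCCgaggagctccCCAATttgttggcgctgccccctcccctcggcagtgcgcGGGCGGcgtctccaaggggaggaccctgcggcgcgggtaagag
Col4a5: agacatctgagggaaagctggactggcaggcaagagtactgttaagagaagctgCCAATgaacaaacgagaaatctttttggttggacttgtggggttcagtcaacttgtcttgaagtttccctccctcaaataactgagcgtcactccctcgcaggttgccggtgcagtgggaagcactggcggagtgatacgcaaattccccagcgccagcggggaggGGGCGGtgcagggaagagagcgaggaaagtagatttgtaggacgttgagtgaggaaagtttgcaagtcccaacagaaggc
Col4a6: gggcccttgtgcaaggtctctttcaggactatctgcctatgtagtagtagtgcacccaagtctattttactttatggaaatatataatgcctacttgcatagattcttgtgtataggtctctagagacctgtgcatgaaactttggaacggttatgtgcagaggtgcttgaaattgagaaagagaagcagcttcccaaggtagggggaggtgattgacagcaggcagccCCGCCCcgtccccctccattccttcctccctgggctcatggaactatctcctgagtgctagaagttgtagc
Col1a2: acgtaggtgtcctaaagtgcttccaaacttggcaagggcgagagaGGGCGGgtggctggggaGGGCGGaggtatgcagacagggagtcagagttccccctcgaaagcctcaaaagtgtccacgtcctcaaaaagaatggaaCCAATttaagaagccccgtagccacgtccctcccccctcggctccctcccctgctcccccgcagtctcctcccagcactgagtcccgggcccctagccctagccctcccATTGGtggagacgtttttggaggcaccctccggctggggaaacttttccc
The start sites of Col4a1 and Col4a2 were 21 bases apart and their windows shared 78 bases, whereas those of Col4a5 and Col4a6 were 1343 bases apart and shared none. The Col4a1 and Col4a2 windows were 74.0% and 73.7% G or C, against a median of 52.7% over 32851 RefSeq windows. Each held 1 CCAAT box, a match found in 37.4% of all windows. Col4a2 held 3 GC boxes and Col4a1 held 1, where 35.7% of all windows have at least 1. The GC box of Col4a1 lies in the shared bases and is the same site as 1 of those of Col4a2. None of the 5 windows held a TATA box, present in 13.6% of all windows. These matches describe letters and do not show binding. Windows were found for 35 of the 44 genes.

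In mural cells, the pericytes and smooth muscle cells that wrap the endothelium, 6 of the 11 collagens tested were called, beside 7.54% of all genes tested. Col4a1 stood at 417 CPM (379 to 458) and Col4a2 at 214 CPM (187 to 244). Col1a2, a chain of type I collagen, reached 84.8 CPM with a UMI in 61 of 219 cells, while its partner Col1a1 had no UMI there, which allows a summed level of up to 2.86 CPM. At a median of 3922 UMIs per cell this does not limit how many mural cells express Col1a1. Col18a1, a basement membrane collagen whose end fragment is endostatin, stood at 36.2 CPM, Col4a5 at 26.7 and Col3a1 at 18.1. Col4a1 in mural cells was 319 CPM in the library of suffix 2 and 436 in that of suffix 3, and Col1a2 was 108 and 78.4. Each of the 6 genes was higher in mural cells than in the other classed cells in both of these libraries. Without suffix 3, where 25 mural cells were left, Col1a2, Col4a1 and Col4a2 were still called, whereas Col3a1, Col4a5 and Col18a1 had 6, 7 and 8 UMIs, under the minimum of 10. By interval the UMIs of those 3 genes also did not lie above those expected from free RNA in T cells, of which suffix 3 held only 24. They did lie above those expected from microglia or from mature oligodendrocytes, references chosen after the data were seen. The call rule had already set these genes above the other classed cells, so that pass is no separate support. All calls are described further on. With equal weight for each other class, which lets the 20 fibroblasts count as much as any class, Col4a1 alone was called and Col3a1 turned to a log2 fold of -0.82.

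Mural cells also held 284 UMIs of the 6 endothelial markers, and 110 of the 219 had none. In those 110 cells Col4a1 was 367 CPM (320 to 420), Col4a2 218 and Col1a2 88.8, and the same 6 genes were called. Endothelial cells held Col1a2 at 1.501 CPM. They also held 4115 UMIs of the pericyte and 1146 of the smooth muscle markers, and 526 of the 1089 had none. In those 526 endothelial cells Col4a1 was 294 CPM (276 to 313) and Col4a2 197 CPM (182 to 213). Of the 7 fibroblast markers, mural cells held 981 UMIs, 758 of them Mgp. Ogn had 100 UMIs in 58 cells and Slc6a13 had 96 in 51. Dcn had 14, Islr 12, Fmod 1 and Lum none. The part of such RNA in the mural Col1a2 was not tested.

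Pericytes and smooth muscle cells differed in several chains. Pericytes (135 cells) held Col4a1 at 530 CPM and smooth muscle cells (84 cells) at 321, a ratio of 1.65 (1.36 to 2.004). For Col4a2 the ratio was 1.32 (1.004 to 1.73). Col18a1 had 38 UMIs in smooth muscle cells, 67.1 CPM, and none in pericytes, and so was at least 10.8-fold higher with a floor of 3 counts over the pericytes. Col4a5 was 42.4 CPM in smooth muscle cells and 8.28 in pericytes, a ratio of 5.12 (1.76 to 20.3). Col27a1, a fibrillar collagen, went the other way, with 72.4 CPM in pericytes and 8.83 in smooth muscle cells, a ratio of 8.20 (3.20 to 26.8). Col1a2 stood at 93.6 CPM in smooth muscle cells and 74.5 in pericytes, and the interval of that ratio, 0.807 to 1.97, included 1. Almost all pericytes, 132 of 135, carried suffix 3, as did 62 of the 84 smooth muscle cells. Within suffix 3 alone the ratios were 1.64 for Col4a1 (1.33 to 2.04), 1.42 for Col4a2 (1.05 to 1.93), 5.93 for Col27a1 (2.31 to 19.4) and 4.87 for Col4a5 (1.59 to 19.9), and Col18a1 was at least 11.5-fold higher in smooth muscle cells.

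Endothelial cells were split by marker lists of arterial, capillary and venous segments that hold no collagen. Col18a1 was 146 CPM in the 34 arterial cells, with a UMI in 21 of them, and 7.11 CPM in the 798 capillary cells, a ratio of 20.5 (13.2 to 31.9). Col5a2, a chain of the fibrillar type V, was 60.8 CPM in arterial and 1.73 CPM in capillary cells, 35.1-fold (15.7 to 83.9), although only 8 of the 34 arterial cells had it. The 181 venous cells held more Col4a1 than capillary cells, 418 against 287 CPM, 1.46-fold (1.35 to 1.57), and more Col4a2, 278 against 198 CPM, 1.40-fold (1.28 to 1.54). Venous cells also had a median of 11678 UMIs, beside 5601 in capillary and 5728 in arterial cells. The parts of depth and of mural RNA in the segment ratios were not tested. Arterial and capillary cells did not differ in Col4a1 beyond counting error, with a ratio of 1.18 (0.962 to 1.43). All 13 endothelial UMIs of Col6a6, a type VI chain, fell in venous cells. No cell was assigned to the list of angiogenic markers. The class-wide level of Col18a1, 11.3 CPM, averaged over these segments and was not called.

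**Figure D3:**
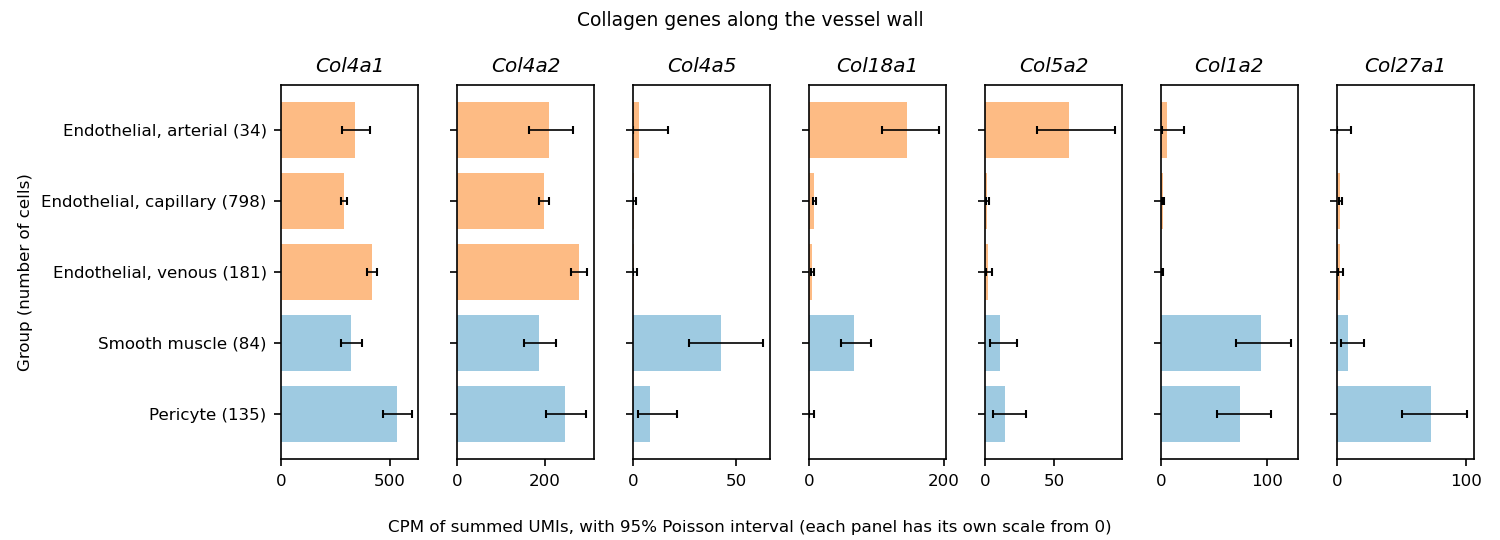
CPM of 7 collagen genes (horizontal axes, each from 0) in arterial, capillary and venous endothelial cells, smooth muscle cells and pericytes (vertical axis, with cell numbers); error bars are exact 95% Poisson intervals. Col18a1 was highest in arterial endothelial cells at 146 CPM and had no UMI in pericytes, and Col27a1 stood at 72.4 CPM in pericytes.

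Fibroblasts, which build connective tissue in the meninges and around larger vessels, were only 20 cells, 5 of suffix 2 and 15 of suffix 3, with 113205 UMIs. In this class 14 collagens were called, beside 18.8% of all genes tested, and those 14 were every collagen that reached 10 UMIs there, a level of 88.3 CPM, so that a gene had to be high in this class to be tested. Col1a2 led at 963 CPM (791 to 1161) with a UMI in 19 of 20 cells, followed by Col4a1 at 769, Col4a2 and Col15a1 at 707 each, Col1a1 at 663 and Col3a1 at 610. Col1a1, Col1a2 and Col3a1 are the chains of the large fibrils of types I and III. Over all other classed cells Col1a1 was 0.157 CPM and Col3a1 0.138 CPM. Astrocytes held the next level of Col1a1, 8.99 CPM from 12 UMIs in 12 cells, and mural cells the next level of Col1a2. Col1a2 was 11.4-fold higher in fibroblasts than in mural cells (8.50 to 15.2) and Col3a1 33.7-fold (20.03 to 59.3).

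The other fibroblast calls covered several families. Col15a1 and Col18a1, the multiplexins that link basement membranes to the matrix around them, were 707 and 300 CPM. Col12a1, which coats type I fibrils, was 239, and the transmembrane Col13a1 was 186. The type VI chains Col6a1 and Col6a2, which assemble into beaded filaments, were 150 and 133, while Col6a3 had only 3 UMIs in fibroblasts. Col4a5, Col4a6 and Col26a1 were 141, 106 and 97.2. Of the 44 genes, 21 had their highest level in fibroblasts, and for 17 of those the interval lay apart from that of the next class. The share over all genes is not given here. Only the 14 called genes of the 21 reached 10 UMIs in this class. Col5a1 and Col14a1 led at 8.83 CPM each, and Col6a3 and Col22a1 at 26.5 CPM each, the level of 3 UMIs. Col6a3, Col22a1 and Col7a1, the last at 61.8 CPM, were among the 17.

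The 20 fibroblasts did not hold these genes evenly. In the 5 cells of suffix 2, Col1a2 had a UMI in 5 and Col1a1 in 5, but Col4a1 in 2. All 17 UMIs of Col18a1 lay in 1 of these cells, and the 17 UMIs of Col15a1 likewise lay in 1 cell. In the 15 cells of suffix 3, Col4a1 was found in 13 and Col15a1 in 11. Col4a1 was 923 CPM in suffix 3 and 264 in suffix 2, 3.50-fold (1.62 to 8.98), and Col4a2 was 877 and 151, 5.82-fold (2.18 to 21.9). The summed collagen level was 6253 CPM (5738 to 6802) in suffix 3 and 5767 CPM (4890 to 6757) in suffix 2, so these intervals overlapped. Without suffix 3 the class had 5 calls and without suffix 2 it had 13.
Of the 7 fibroblast markers, Dcn and Islr each had a UMI in 19 of the 20 cells. Slc6a13 had one in 16, Ogn in 15, Lum in 10, Mgp in 7 and Fmod in 2. Markers of astrocytes, precursors, neurons and neutrophils had a UMI in 95%, 70%, 65% and 65% of the fibroblasts. They stood at 4.75, 3.6, 3.55 and 3.7 UMIs per cell, against 67.95 for the fibroblast markers. The part of such RNA in the calls was not tested. Of the pericyte markers the 20 fibroblasts held 736 UMIs, and 734 of these were Vtn, found in 15 cells, whereas Abcc9, Higd1b and Atp13a5 had none. The endothelial markers Pecam1 and Cdh5 were at 0 and the other 4 summed to 13 UMIs.

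The UMI ratio of chains that share a trimer was compared between classes. Because 3′ UMIs count 1 tag per molecule, values were not divided by length. Col4a1 to Col4a2 was 1.48 in endothelial cells (1.40 to 1.56), 1.95 in mural cells (1.65 to 2.30) and 1.09 in fibroblasts (0.793 to 1.49), so the endothelial and mural intervals did not overlap. In the 110 mural cells with no endothelial marker UMI the ratio was 1.69 (1.35 to 2.12), which overlapped with that of endothelial cells. In the library of suffix 2 it was 1.72 in endothelial (0.934 to 3.27) and 1.38 in mural cells (0.870 to 2.22), the other way round with overlapping intervals, and in that of suffix 3 it was 1.47 (1.39 to 1.56) and 2.06 (1.73 to 2.46). Both chains were found together in 54.8% of endothelial cells. Col1a2 to Col1a1 was 1.45 in fibroblasts, whereas mural cells held 89 UMIs of Col1a2 and none of Col1a1. Col6a1 to Col6a2 was 1.13 in fibroblasts (0.532 to 2.44). Col4a3 and Col4a4, the other head-to-head pair of type IV genes, were not called in any class and were highest in mural cells (7.62 and 13.3 CPM) and choroid plexus cells (7.15 and 14.3 CPM).

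**Figure D4:**
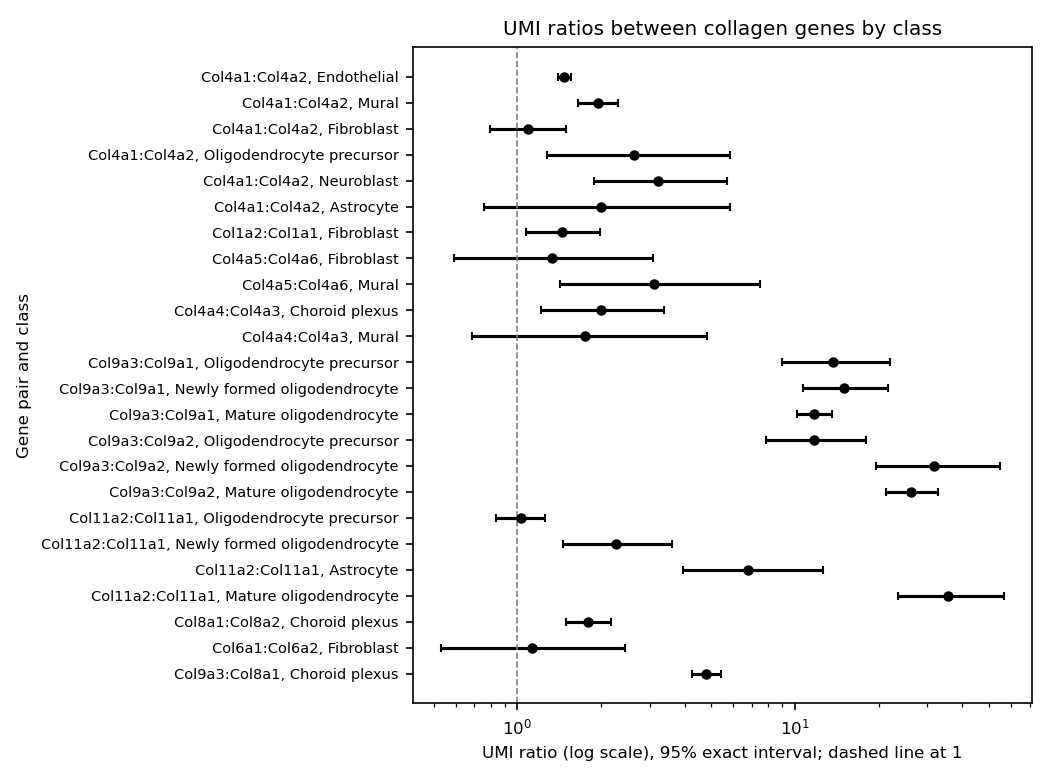
Ratio of the summed UMIs of pairs of collagen genes (horizontal log axis) by class (vertical axis) with exact 95% intervals; the dashed line marks equal counts. Col4a1 exceeded Col4a2 by 1.48 in endothelial and 1.95 in mural cells, and Col11a2 exceeded Col11a1 by 35.7 in mature oligodendrocytes and by 1.03 in precursors.

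Oligodendrocyte precursors and newly formed oligodendrocytes shared calls of Col9a3, Col11a1, Col11a2 and Col16a1, while mature oligodendrocytes had none of 21 collagens called. Newly formed cells also held the precursor markers, with a UMI in 92.8% of cells and 16.4 UMIs per cell, beside 29.6 in precursors. Their median depth was 12083 UMIs, against 5786 in precursors. Precursors, the dividing cells that give rise to myelinating oligodendrocytes, had 5 calls among 13 collagens tested, beside 7.02% of all genes tested. These were Col9a3 at 149 CPM (133 to 167), Col11a2 at 91.3, Col11a1 at 88.9, Col16a1 at 49.7 and Col5a3 at 21.3. Types V and XI are fibrillar chains that regulate fibril width, and types IX and XVI are fibril-associated. In the 3 libraries Col9a3 was 164, 137 and 124 CPM in precursors and 30.7, 22.4 and 20.4 CPM in the other classed cells. Col11a1 was 93.6, 98.6 and 48.04 CPM in precursors and at or below 1.99 CPM in the others. Each of the 5 genes was higher in precursors than in the other cells in all 3 libraries.

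Newly formed oligodendrocytes, the short-lived stage that follows, had 6 calls among 8 collagens tested, beside 5.25% of all genes tested. Col9a3 stood at 538 CPM (494 to 585) with a UMI in 72 of 83 cells, 3.599-fold above precursors (3.13 to 4.15), and was 538, 543 and 522 CPM in the 46, 29 and 8 cells of the 3 libraries. Col20a1 (39.8 CPM) and Col9a1 (35.9 CPM), both fibril-associated, were 3.24-fold (1.93 to 5.53) and 3.30-fold (1.90 to 5.83) above precursors. Col11a1 was the other way round, 2.98-fold higher in precursors than in newly formed cells (2.02 to 4.53), whereas Col16a1, at 37.9 CPM, did not differ beyond counting error (ratio 1.31, 0.897 to 1.95). Col11a2 was 67.7 CPM. The exons of Col9a3 overlap those of Tcfl5 on the other strand, as do those of Col15a1 and Gm12426. No source used here gives the strand setting of the counting, and whether reads of such overlaps were counted apart was not tested. The overlap of Col4a1 and Col4a2 covers only their starts, from 11312805 to 11312826 on chromosome 8, whereas the tags are 3′.

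In mature oligodendrocytes all of these were low. Col9a3 was 35.5 CPM, 15.1-fold below newly formed cells (13.8 to 16.6). Col11a1 was 0.354 CPM, 251-fold below precursors (163 to 406), and Col11a2 was 12.6 CPM, 7.24-fold below (6.15 to 8.47). The ratio of Col11a2 to Col11a1 UMIs was 1.03 in precursors (0.835 to 1.26), 2.27 in newly formed cells (1.45 to 3.61) and 35.7 in mature cells (23.6 to 56.6). The 3 intervals did not overlap. Precursors, newly formed and mature cells were 347, 83 and 9529 in number. No collagen was called in neuroblasts, where Col11a1 was highest at 16.7 CPM, followed by Col9a3 at 16.4 and Col5a2 at 6.63.

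Astrocytes had 3 calls among 11 collagens tested, beside 6.53% of all genes tested. These were Col11a2 at 76.4 CPM (62.3 to 92.7), Col16a1 at 31.5 and Col4a5 at 18.0. None of the 3 calls held in every library left out. Without suffix 3, Col11a2 was 31.4 CPM and Col16a1 25.9 CPM in the 154 astrocytes left, 3.51 and 3.87 times the level of the other classed cells with 5 CPM added to each, and both calls were lost. That setting still gave 4 astrocyte calls in all, so it called other collagens that were not called with all libraries. Without suffix 1 the call of Col4a5 was lost. Col9a3 was 38.2 CPM and was not called. Col11a2 was 30.1, 32.4 and 107 CPM in the 61, 93 and 159 astrocytes of suffix 1, 2 and 3. Its partner Col11a1 had 15 UMIs in 11 astrocytes, and none of the 313 cells held both genes. Astrocytes held 0.220 UMIs per cell of the precursor markers against 29.6 in precursors. Over all libraries Col11a2 was 1.20-fold higher in precursors (0.935 to 1.53), but the libraries differed. Precursors held 95.3 and 83.9 CPM in suffix 1 and 2, with intervals above those of astrocytes, and 92.7 CPM in suffix 3, where the intervals overlapped.

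The epithelial cells at the ventricles carried a set that was different only in part, since Col9a3 and Col5a3 were also called in precursors. Choroid plexus cells, which secrete cerebrospinal fluid, had 3 calls among 10 collagens tested, beside 4.16% of all genes tested. These were Col9a3 at 446 CPM (425 to 469), Col8a1 at 93.3 and Col8a2 at 51.8. Col8a1 and Col8a2 are the chains of the short-chain network collagen VIII. Col9a3 was 411 and 478 CPM in the libraries of suffix 1 and 2 and Col8a1 was 77.4 and 108, whereas other classed cells held at most 0.0829 CPM of Col8a1 there. Col8a1 to Col8a2 was 1.80 (1.497 to 2.17), and 61 of 201 cells held both. Col17a1, a transmembrane collagen of epithelia, had its highest level here, 10.3 CPM, and was not called. Ependymal cells, the ciliated lining, were 26 cells with 3 calls beside 24% of all genes tested: Col6a5 at 117 CPM, Col8a2 at 73.7 and Col5a3 at 47.7. Those 3 were every collagen that reached 10 UMIs there, a level of 43.3 CPM. A gene therefore had to be high in this class to be tested. Col6a5 was found in 4 cells, and 18 of its 27 UMIs lay in 1 of them, so that 9 UMIs in 3 cells remained without it. All 3 ependymal calls were lost without the library of suffix 3.

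Neurons had 1 call among 2 collagens tested, beside 9.3% of all genes tested. Col25a1, a transmembrane collagen of neurons known as the precursor of an amyloid plaque component, was 155 CPM (135 to 178) with a UMI in 64 of 101 cells. It was 161 and 177 CPM in the libraries of suffix 1 and 2 and at most 0.567 CPM in their other classed cells. Only 1 neuron carried suffix 3.

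Microglia, the resident macrophages of the brain, had 1 call among 17 collagens tested, beside 2.74% of all genes tested. Col27a1 was 51.6 CPM (50.1 to 53.2) with a UMI in 32.4% of 9386 cells, against 0.764% of T cells, whose median depth was 4769 UMIs per cell beside 7675 in microglia. The CPM was 37.6-fold that of T cells (24.0 to 62.5) and 8.86-fold that of border macrophages (4.49 to 20.5). Oligodendrocyte precursors held 49.7 CPM of Col27a1 (40.6 to 60.1), at 41.1, 53.0 and 75.5 CPM in suffix 1, 2 and 3, and the pooled ratio was 1.04 (0.856 to 1.27). By interval microglia lay below precursors in suffix 2 and above them in suffix 3, and overlapped with them in suffix 1. Pericytes, of the mural class, held 72.4 CPM of Col27a1 (50.4 to 101), and 71.3 CPM within suffix 3 alone. By library Col27a1 was 47.5, 31.8 and 133 CPM in microglia of suffix 1, 2 and 3, a UMI being found in 31.7%, 23.9% and 54.7% of cells. In mature oligodendrocytes of the same libraries it was 5.74, 6.96 and 5.73 CPM. The microglial call was lost without suffix 3, at 3.92 times the level of the other classed cells with 5 CPM added to each, against the 4 required. Col15a1 was the next collagen of microglia, at 9.45 CPM (8.82 to 10.1), below the calling threshold, and stood 26.1-fold above T cells (11.2 to 80.7).

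**Figure D5:**
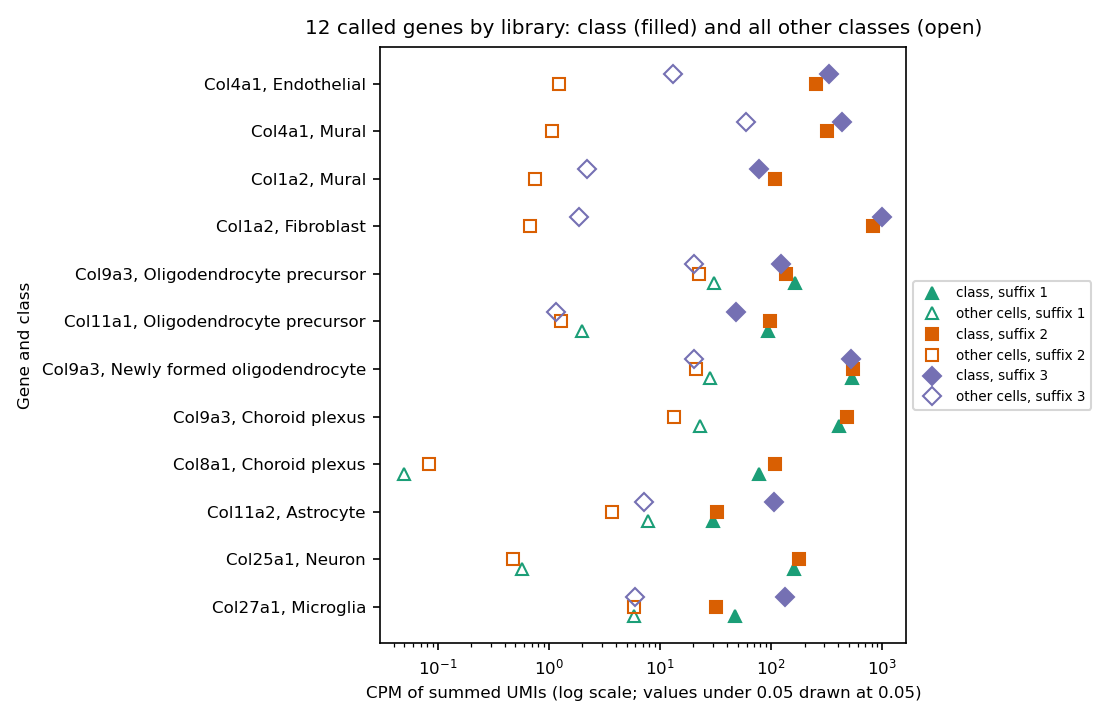
CPM (horizontal log axis) of 12 called genes in their class (filled symbols) and in all other classed cells (open symbols) of each library with at least 5 cells of the class (vertical axis: gene and class). Col27a1 of microglia was 133 CPM in suffix 3 beside 47.5 and 31.8, while Col9a3 of newly formed oligodendrocytes lay between 522 and 543 CPM in all 3.

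In droplet data free RNA gives UMIs in cells that do not express a gene, so each of the 44 calls was set against the UMIs expected from T cells of the same libraries, a class that should lack collagens. The call rule had already set each class above the other classed cells, T cells included, so a pass was in part fixed in advance and is no separate support. The lower bound of the observed UMIs lay above the upper bound of the expected UMIs for 40 calls. The other 4 were Col3a1, Col4a5 and Col18a1 in mural cells and Col4a5 in astrocytes, where 26.5 to 29.6 UMIs were the upper bounds expected and suffix 3 held only 24 T cells. With microglia as the reference 43 of 43 calls lay above, and with mature oligodendrocytes 44 of 44. These references were chosen after the data were seen, and the same limit holds for them. Col4a1 in microglia, another class that should lack it, was 0.0372, 0.0425 and 2.40 CPM in suffix 1, 2 and 3, beside 333 CPM in endothelial cells of suffix 3. These values cover this gene only, and the weaker calls were not compared in this way.

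Genes that serve collagen were taken from 5 lists of known roles. Of 15 basement membrane partners (laminins, nidogens, perlecan and agrin), 10 were called in mural cells, 8 in fibroblasts and 6 in endothelial cells, and at most 2 in any other class, where 10, 8 and 11 of them had at least 10 UMIs and 7.54%, 18.8% and 5.53% of all genes tested were called. Over the whole list the median log2 fold was 2.59 in mural cells, 3.86 in fibroblasts and 1.34 in endothelial cells, beside 0.16, 0.50 and 0.03 over all genes tested there. The list medians include genes under 10 UMIs, which the medians over all genes tested do not. In fibroblasts, which had the highest level of 8 of the 15, Lamc1, a laminin chain, was 433 CPM (320 to 572) and Nid1, which bridges laminin and type IV collagen, was 398 CPM (290 to 532). Of 19 folding and modification genes, 3 of 18 tested were called in endothelial cells (5.53% of all genes tested), 2 of 17 in mural cells (7.54%), 2 of 7 in fibroblasts (18.8%) and 2 of 17 in astrocytes (6.53%), and at most 1 elsewhere. Serpinh1, the collagen chaperone of the endoplasmic reticulum, was 928 CPM in fibroblasts (759 to 1123), 373 in mural cells and 312 in endothelial cells. It was called in these classes and also in astrocytes and ependymal cells, but not in precursors or newly formed oligodendrocytes. Sparc, a collagen-binding secreted protein, was 1466 CPM in fibroblasts and 1638 in microglia, and was called in microglia only.
Of 13 trimming and cross-linking genes, 2 of 6 tested were called in mural cells and 2 of 6 in choroid plexus cells, beside 7.54% and 4.16% of all genes tested. The most abundant members in mural cells, the class that led more genes of this list than any other, were Pcolce, the enhancer of procollagen trimming, at 81.0 CPM and Lox, a cross-linking enzyme, at 24.8 CPM. Pcolce was higher in fibroblasts, at 1042 CPM. Of 10 collagen receptors, mural cells had 3 calls among 6 tested, beside 7.54% of all genes: Itgb1 at 592 CPM, Itga1 at 470 CPM and Ddr2 at 35.3 CPM. No other class had more than 1. The list of 11 breakdown genes held proteases and the Timp inhibitors of proteases. Of these, 3 of 6 tested were called in precursors, 3 of 5 in astrocytes, 2 of 4 in neutrophils and 2 of 3 in ependymal cells. There 7.02%, 6.53%, 5.45% and 24% of all genes tested were called. The ependymal calls were the inhibitors Timp3 and Timp4. Inhibitors were also among the calls of astrocytes (Timp3 and Timp4) and precursors (Timp4). Timp3 was called in endothelial cells, mural cells and fibroblasts as well, and Timp4 in newly formed oligodendrocytes. Microglia, neutrophils and precursors tied in leading 2 genes each of this list. In microglia the most abundant members were the inhibitor Timp2 at 1405 CPM, which was called, and the protease Mmp14 at 7.20 CPM, which was not. Mmp9 and Mmp8, the proteases that cleave type IV and fibrillar collagens, were 510.5 and 249 CPM in neutrophils. Median log2 folds in mural cells, fibroblasts and endothelial cells were 0.39, 0.81 and 0.34 over the folding list. They were 0.38, -0.03 and -0.06 over the trimming list and 0.54, -0.01 and -0.01 over the receptors. Over the breakdown genes they were -0.47, -0.06 and -0.72, beside 0.16, 0.50 and 0.03 over all genes tested.
Serpinh1 in other classes, Pcolce in fibroblasts, Ddr2, Mmp8, Mmp9, Timp3 and Timp4 were named after their values were seen.

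Of the 18 collagens that were not called, Col6a4 had no UMI in any cell, Col10a1 and Col19a1 had under 10, and the others had from 11 to 362 UMIs over all cells. Among these Col2a1, the chain of cartilage fibrils, had 221 of its 267 UMIs in mature oligodendrocytes, at 3.40 CPM.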

How the data were processed

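Single-cell RNA was captured with 10x Genomics 3′ chemistry in 3 samples, 1 library per condition. Per the submitters' processing notes and the study's methods, the authors used Cell Ranger 3.1.0 with STAR and mm10, and reads were down-sampled across libraries on aggregation. No source used here gives the gene annotation or the strand setting. The deposited matrix holds raw UMI counts made by the authors, not normalized, of 31053 genes in 35968 barcodes. Neither the labels nor the files pair its suffixes with conditions.

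Cells were classed by 19 panels of 119 marker genes: at least 3 panel genes with a UMI and at least 5 UMIs, the panel with most UMIs deciding. Cells with a passed panel of another lineage above 25% of those UMIs, or a tie, were mixed. No doublet caller was run. Counts were summed per class as CPM, with a prior of 5 CPM in folds, and the call rule was tested on simulated data. The text names all called collagens, the 3 highest per class described, the chains of types I, III, IV and VI, and from each partner list the 2 highest members in the class that led most of it. Other genes were named after their values were seen. The members and lists were chosen with earlier results of these data known. Positions are from GENCODE M21 (GRCm38). No p-value was computed, since there is no replicate. Alternatives covered gates, filters, thinning to 1000 UMIs, fold, prior, weighting and leaving out each library. Python 3.11.15, NumPy 2.4.6, SciPy 1.17.1, pandas 2.3.3 and Matplotlib 3.10.9 were used.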

Additional observations from a re-analysis of the deposited data

Results flagged for a closer look

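Collagen RNA was also found in cells outside every class. The 1747 mixed cells held 231 CPM of summed collagen (225 to 237) and 17.5% of all collagen UMIs, including 30.8% of those of Col4a1 and 32.9% of those of Col1a2. The 3436 cells that passed no panel held 47.8 CPM (44.5 to 51.2) and 2.58% of all collagen UMIs. Both levels lay above the 5.64 CPM of T cells. Mixed cells had a median of 11972 UMIs and 236 of them passed both the endothelial and the pericyte panel. Cells in no class had a median of 2359 UMIs. The part of doublets in the mixed cells was not tested.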

How the results depend on the processing

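Under 18 other settings, 12 of the 44 calls held wherever a value could be computed, among them Col4a1 in endothelial and mural cells, Col1a1, Col1a2, Col3a1 and Col15a1 in fibroblasts and Col9a3 in newly formed oligodendrocytes and choroid plexus cells. Leaving out each library in turn gave 29 to 43 calls in all, 3 to 6 in mural cells, 5 to 14 in fibroblasts, 0 to 2 in ependymal cells, 0 to 1 in microglia, and summed levels of 419 to 593 CPM in endothelial and 884 to 970 CPM in mural cells. Every low end came without suffix 3. In astrocytes 2, 3 and 4 collagens were called without suffix 1, 2 and 3. Thinned to 1000 UMIs per cell, where fewer UMIs are left to reach the minimum, 21 calls remained in all: 3 in mural cells, 6 in fibroblasts, 1 in newly formed oligodendrocytes, 1 in astrocytes and 0 in ependymal cells, and Col4a6 in fibroblasts turned to a log2 fold of -0.053. Summed levels were then 534 CPM in endothelial cells, 1027 in mural cells and 617 in precursors. A fold of 2 gave 67 calls in all, a prior of 1 CPM gave 66, and each of both gave 10 in mural cells, 10 in precursors, 6 in astrocytes, 9 in choroid plexus cells and 2 in microglia. A fold of 8 gave 29 calls, with 3 in mural cells, 2 in precursors, 1 in newly formed oligodendrocytes and 0 in astrocytes and in microglia.

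With equal weight for each other class, an alternative chosen after seeing the data, 1 call was left in endothelial cells, 1 in mural cells, 3 in precursors, 1 in astrocytes and 0 in microglia, and Col3a1 in mural cells turned to a log2 fold of -0.82. The study's filter of 2 SD left 1 call in ependymal cells and 525 CPM in endothelial cells, and a mitochondrial limit of 10% left 1 call in astrocytes. The mean over single cells gave 5 calls in astrocytes, 533 CPM in endothelial cells and 580.4 CPM in precursors. Mixed cells put in a class gave 821 CPM in mural cells and 5095 CPM in fibroblasts. Among settings also chosen after seeing the data, cells that passed panels of 1 lineage gave 0 calls in ependymal cells and 1017 CPM in mural cells, and mural cells with no endothelial UMI gave 886 CPM. With NK cells as the free-RNA reference, 18 of 44 calls lay above the expected level, and only 4 NK cells carried suffix 3. Microglia gave 43 of 43 and mature oligodendrocytes 44 of 44, as references chosen after seeing the data. No paired analysis was possible because the suffixes carry no replicate number and no test was made. The cause of these changes was not tested unless stated.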
